A study of Mus musculus with 21 samples.

Results

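Tudor domains are protein modules that bind methylated arginine, and the 8 genes described here (Tdrd1, Tdrd3, Tdrd5, Tdrd6, Tdrd7, Tdrd9, Tdrkh and Stk31) encode Tudor proteins of germ granules or their relatives. They were taken by gene symbol from a table of 37620 genes, and all 8 were found. The study from which the table came mapped the binding sites of PRDM9 and asked how gene expression and chromatin bear on their use as recombination hotspots. Its RNA-seq data are from germ cells that were freed from the testis with collagenase and trypsin and are labelled spermatocytes. All the males were C57BL/6J (B6) at 12 days post-partum (dpp). The libraries are named 186wt, 343wt, 444wt or 456wt, so there are 4 sample numbers of 3 libraries, all wild type, with no treatment, mutant or second age. The other 9 samples of the series (ChIP-seq, Affinity-seq and inputs) were not analysed here.

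Germ granules are cytoplasmic bodies of RNA and protein, among them the intermitochondrial cement of spermatogonia and spermatocytes and the chromatoid body of spermatids. Piwi proteins load small RNAs there (piRNAs), which silence transposons, and Tudor proteins hold the Piwi proteins by their methylated arginines. Loss of several of these genes in the mouse is known to stop spermatogenesis and leave males sterile.

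The table holds FPKM, which count fragments relative to transcript length and library size, so levels can be compared between genes of different length. From the steps between low values the depth was estimated at 13.3 to 18.6 M (mega) fragments a library. The 3 libraries of a number differed by little more than counting noise. In 2549 to 2676 genes with a single transcript the median chi-square between them was 1.00 to 1.11 times its value under counting error alone. Between the 4 numbers it was 19.0 times (3335 genes). This used sums of the 3 libraries, whose greater depth raises the ratio where levels differ. The 3 libraries were therefore averaged and counted as 1 sample, and n is 4 for every mean. The p-values below, from limma fits over the 12 libraries, set the numbers against the spread between libraries, which may be technical, and so compare these 4 samples only. Nothing in the labels says whether a number is 1 animal or a pool.

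The label was checked against marker genes. The 12 early meiotic prophase markers summed to 376 to 625 FPKM, the 8 spermatogonial markers to 500 to 694 FPKM and the 6 spermatid markers to only 2.38 to 4.30 FPKM, with Prm2 at 0 in every number. Sertoli cell markers were the highest of the lists, at 2064 to 3724 FPKM over the 8 of 9 found. The preparation thus held RNA of spermatogonia, early spermatocytes and somatic cells, so the levels below cannot be assigned to 1 cell type. In such bulk samples, fewer cells of a type and less RNA per cell cannot be told apart.

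In the order of their mean levels the members formed 4 steps, set only by whether the ranges of neighbours overlapped. At the top stood Tdrd1, Stk31, Tdrd9, Tdrkh and Tdrd7, with neighbours whose ranges over the 4 numbers overlapped. Tdrd5 came next, then Tdrd3, and Tdrd6 lay far below all others. The ranges of Tdrd7 and Tdrd5, of Tdrd5 and Tdrd3 and of Tdrd3 and Tdrd6 did not overlap. Members of the top step could still differ. Tdrd9 was above Tdrkh in 4 of 4 numbers, and the ranges of Tdrd1 and Stk31 did not overlap that of Tdrd7. An exact paired test of neighbours over 4 samples cannot give a p below 0.125, so the order was not tested.

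**Figure D1:**
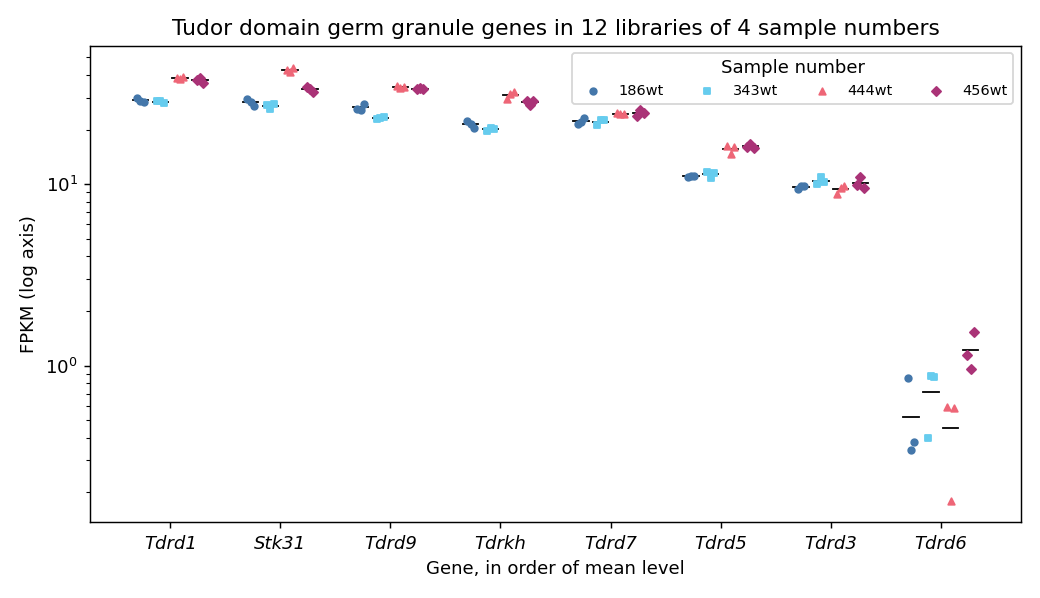
FPKM (log axis) of the 8 members in each of the 12 libraries, by sample number (colour and symbol). Bars are means of the 3 libraries of a number. The 5 highest members lie between 20.0 and 42.7 FPKM by number mean, and Tdrd6 lies at or below 1.21 FPKM.

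Tdrd1, a scaffold that binds the Piwi protein MILI, was the highest member, at 33.4 ± 5.31 FPKM (SD, n = 4). By number it was at 29.1 FPKM in 186wt, 28.5 in 343wt, 38.5 in 444wt and 37.3 in 456wt. The libraries of 186wt and 343wt (28.1 to 30.0 FPKM) and those of 444wt and 456wt (36.2 to 39.1 FPKM) did not overlap. The gene lies on chromosome 19 (56900699 to 56944502, plus strand, NCBI build 37) and has 4 annotated transcripts.

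Tdrd9, an RNA helicase with a Tudor domain that works with the Piwi protein MIWI2, was at 29.3 ± 5.46 FPKM (SD, n = 4). It was at 26.5 FPKM in 186wt, 23.1 in 343wt, 34.2 in 444wt and 33.6 in 456wt, so 343wt was lowest, and its libraries did not overlap those of 186wt. Its place is chromosome 12, 113209770 to 113307065, plus strand, with up to 36 exons in a transcript. Another annotated gene overlaps its body without sharing exon bases.

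Tdrkh, a mitochondrial membrane protein with KH and Tudor domains that takes part in trimming piRNAs, was at 25.2 ± 5.33 FPKM (SD, n = 4). By number it was at 21.4 FPKM in 186wt, 20.0 in 343wt, 31.0 in 444wt and 28.3 in 456wt. The libraries of 444wt were all above those of 456wt, which were all above those of the other 2 numbers. Tdrkh lies on chromosome 3 (94217218 to 94236555, plus strand).

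Stk31, a protein of the testis with a Tudor domain and a kinase-like domain, was at 32.8 ± 7.14 FPKM (SD, n = 4). It was at 28.3 FPKM in 186wt, 26.9 in 343wt, 42.7 in 444wt and 33.3 in 456wt. The libraries of 444wt (41.6 to 43.9 FPKM) were all above those of 456wt (32.2 to 34.2 FPKM). Stk31 lies on chromosome 6 (49345603 to 49419500, plus strand), where another gene overlaps its body without shared exon bases.

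Tdrd5, which is needed for transposon silencing and for the chromatoid body, was at 13.6 ± 2.74 FPKM (SD, n = 4). By number it was at 11.1 FPKM in 186wt, 11.3 in 343wt, 15.6 in 444wt and 16.2 in 456wt. The libraries of 186wt and 343wt (10.8 to 11.6 FPKM) did not overlap those of the other 2 numbers (14.7 to 16.6 FPKM). It lies on chromosome 1 (158185426 to 158233795, minus strand), and GENCODE M1, the annotation of this build, lists it as lincRNA although it encodes a protein.

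Tdrd7, a Tudor protein of granules in the germ line and in the lens, was at 23.3 ± 1.41 FPKM (SD, n = 4). It was at 22.2 FPKM in 186wt, 22.1 in 343wt, 24.5 in 444wt and 24.7 in 456wt. Its span from lowest to highest number was 1.12-fold, beside 1.35-fold to 1.59-fold for the 5 genes above. Tdrd7 lies on chromosome 4 (45978206 to 46047633, plus strand).

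Tdrd3, which also acts outside the germ line, where it binds methylated histones and topoisomerase 3 beta, was at 9.89 ± 0.484 FPKM (SD, n = 4). Its values were 9.61 FPKM in 186wt, 10.4 in 343wt, 9.38 in 444wt and 10.1 in 456wt, and the libraries of 343wt (10.03 to 10.99 FPKM) overlapped those of 456wt (9.48 to 10.99 FPKM) but not those of 186wt and 444wt. Between its lowest and highest number Tdrd3 spanned 0.15 on the log2 scale and Tdrd7 0.16, but with median-ratio scaling the order turned, with 0.25 for Tdrd3 and 0.09 for Tdrd7. Tdrd3 lies on chromosome 14 (87816390 to 87945315, plus strand).

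Tdrd6, a large multi-Tudor protein best known from the chromatoid body of spermatids, was at 0.723 ± 0.342 FPKM (SD, n = 4). The 3 libraries read 0.85, 0.34 and 0.38 FPKM in 186wt, 0.40, 0.87 and 0.86 in 343wt, 0.59, 0.18 and 0.58 in 444wt and 1.14, 0.96 and 1.53 in 456wt. Each library of 456wt was above all other libraries. At these levels a library held an estimated 19.9 to 167 fragments if all came from its longest transcript, and fewer otherwise. On the same basis every other member had 549 or more. The residual SD between its libraries was 0.58 on the log2 scale, beside 0.029 to 0.075 for the other members. It lies on chromosome 17 (43752284 to 43767248, minus strand), and its transcripts run from 468 to 7062 bp. How fragments were divided among them was not tested.

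Between the numbers, 6 of the 8 members passed limma's F-test at a Benjamini-Hochberg adjusted p of under 0.05. Of all 20795 genes tested 58.2% passed, so passing was common in the table. Among the 14348 genes whose mean reached 1 FPKM, 11136 passed, and 6 of 7 members did (Tdrd6 lay below 1 FPKM). The median span between lowest and highest number was 0.55 on the log2(FPKM + 0.1) scale for the members and 0.55 for all genes tested. Stk31 (0.66), Tdrkh (0.63), Tdrd9 (0.57), Tdrd5 (0.54) and Tdrd1 (0.43) spanned most among the called genes. Tdrd7 spanned 0.16 (limma adjusted p = 0.00676). Tdrd3 spanned 0.15 (limma adjusted p = 0.166), and Tdrd6 spanned 1.34 with an adjusted p of 0.0667 in limma. Both missed the threshold. Tdrd3 passed it with median-ratio scaling (adjusted p = 0.0287 in limma), where Tdrd7 did not (0.260). Tdrd6 passed it without library 1 of 186wt (adjusted p = 0.0320 in limma) or library 1 of 343wt (0.0466).

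Tdrd1, Tdrd5, Tdrd7, Tdrd9, Tdrkh and Stk31 were higher in 444wt than in 186wt and in 343wt, and likewise in 456wt, in FPKM as deposited. That is 6 of 8 members in each of the 4 comparisons. Of all genes 25.6% (444wt against 186wt), 29.3% (444wt against 343wt), 25.3% (456wt against 186wt) and 27% (456wt against 343wt) were called higher. These comparisons share samples and are not 4 independent results. Many of these signs flip after division by the summed level of Ddx4, Dazl and Tex14. Not all of the flipped differences are called, as given below. Tdrd9, Tdrkh and Stk31 also have differences that keep their sign but lose their call. Against 343wt, Stk31 in 444wt differed most, at 0.66 on the log2 scale (95% interval 0.58 to 0.75), followed by Tdrkh at 0.63 (0.53 to 0.72) and Tdrd9 at 0.57 (0.50 to 0.63). Tdrd7 differed by 0.15 (0.06 to 0.24; limma adjusted p = 0.0143). Single libraries decided some calls of Tdrd7. Its difference of 444wt from 186wt was lost without library 1 or 2 of 186wt (0.11 and 0.14), that of 456wt from 186wt without library 1 of 186wt or library 2 of 456wt (0.12 and 0.12), and that of 444wt from 343wt without library 1 of 343wt (0.12). With median-ratio scaling Tdrd7 was no longer called in any of the 4 comparisons, at 0.05 to 0.09.

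In FPKM as deposited, fewer members separated the other pairs of numbers. From 186wt to 343wt only Tdrd9 was called, lower by 0.20 on the log2 scale (limma adjusted p = 0.000225), where 12.4% of all genes were called lower. Between 444wt and 456wt, Stk31 was lower in 456wt, with a log2 difference of -0.36 (limma adjusted p = 2.52e-05). Tdrkh was lower there too, at -0.13 (limma adjusted p = 0.0336), and 14.1% of all genes were called lower. Tdrkh lost its call without library 2 or 3 of 444wt or library 2 of 456wt, with differences of -0.12, -0.10 and -0.11. Tdrd6 was higher in 456wt by 1.34 (95% interval 0.41 to 2.28; limma adjusted p = 0.0277), where 15.8% of all genes were called higher. That call was lost without library 2 of 444wt, at 0.91, without library 1 of 456wt, at 1.37, or without library 3 of 456wt, at 1.17.

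These directions rest on what the level is set against. The 3 pan-germ markers Ddx4, Dazl and Tex14, which germ cells of many stages express, summed to 272 FPKM in 186wt, 266 in 343wt, 404 in 444wt and 330 in 456wt. The log2 of the ratio of this sum to its geometric mean over the libraries was -0.21, -0.24, 0.37 and 0.08 for these numbers. Division by the sum took this amount off the log2 level of every gene. It thus lowered values in 444wt and 456wt and raised them in 186wt and 343wt. Against that sum Stk31 was nearly constant, at 10.4% in 186wt, 10.1% in 343wt, 10.6% in 444wt and 10.1% in 456wt (F-test in limma, adjusted p = 0.381). The 7 other members passed the F-test, where 65.1% of 20766 genes did. Tdrd1 was at 10.7%, 10.7%, 9.52% and 11.3% of the sum in the same order, so 444wt was now its lowest number. Tdrd3 was at 3.53%, 3.93%, 2.32% and 3.07%, and Tdrd7 at 8.17%, 8.31%, 6.05% and 7.47%. In 444wt against 343wt the log2 difference of Tdrd3 was -0.75, that of Tdrd7 -0.45 and that of Tdrd1 -0.17 by this measure, each passing the threshold, where 54% of all genes were called lower. In 456wt against 444wt every member but Stk31 was called higher by this measure, from 0.16 (Tdrkh) to 1.55 (Tdrd6). Stk31 was at -0.064 there (limma adjusted p = 0.199). The divisor is lower in 456wt than in 444wt, and no share of all genes is given here for this pair.

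**Figure D2:**
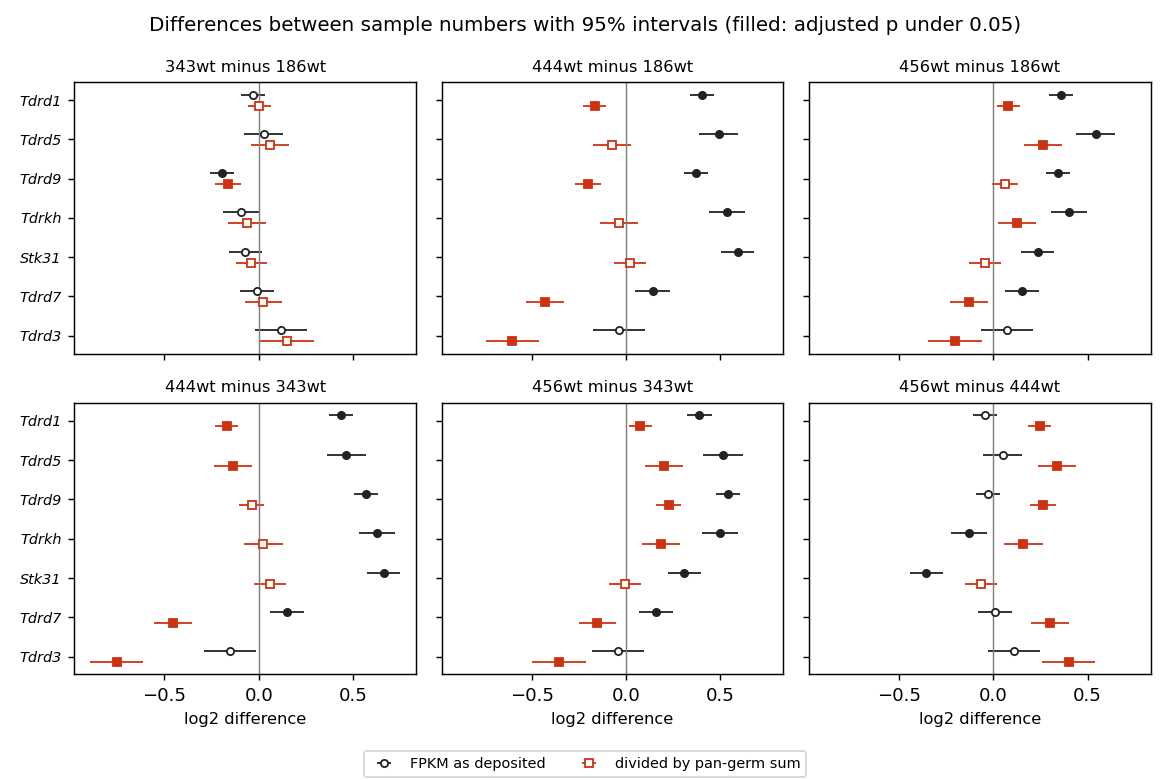
Log2 difference of 7 members in the 6 comparisons of sample numbers, with 95% intervals from limma, for FPKM as deposited (circles) and after division by the summed FPKM of Ddx4, Dazl and Tex14 (squares). Filled symbols have an adjusted p under 0.05. In 444wt minus 343wt, 6 circles lie above 0, while the squares of Tdrd1, Tdrd5, Tdrd9, Tdrd7 and Tdrd3 lie below it. Tdrd6, whose intervals are much wider, is left out.

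Cell type markers moved with the numbers too. The 8 Sertoli markers found summed to 3692 FPKM in 186wt, 3724 in 343wt, 2064 in 444wt and 2287 in 456wt. All 8 were lower in 444wt and in 456wt than in either of the other 2 (limma, Benjamini-Hochberg). In these comparisons 2897 to 3534 of 20795 genes were lower. The defining genes Sox9, at 30.3 to 55.3 FPKM, and Wt1, at 84.2 to 127 FPKM, were well above 0 in every number. Spermatogonial markers summed to 500, 510, 694 and 635 FPKM in the same order, and early meiotic prophase markers to 479, 376, 625 and 451 FPKM. The 4 pachytene and later markers summed to 49.6, 35.1, 38.8 and 55.1 FPKM, mostly Hspa2. Markers of other somatic cells ran in other orders. The Leydig list summed to 56.5, 110 and 16.1 FPKM in 186wt, 343wt and 444wt and to 60.9 FPKM in 456wt. Peritubular myoid markers summed to 533, 253, 670 and 1112 FPKM, and macrophage markers to 9.18, 20.0, 5.02 and 18.1 FPKM. The summed level of the 8 members was 149, 143, 196 and 185 FPKM. The part of these cells in the members' differences was not tested.

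**Figure D3:**
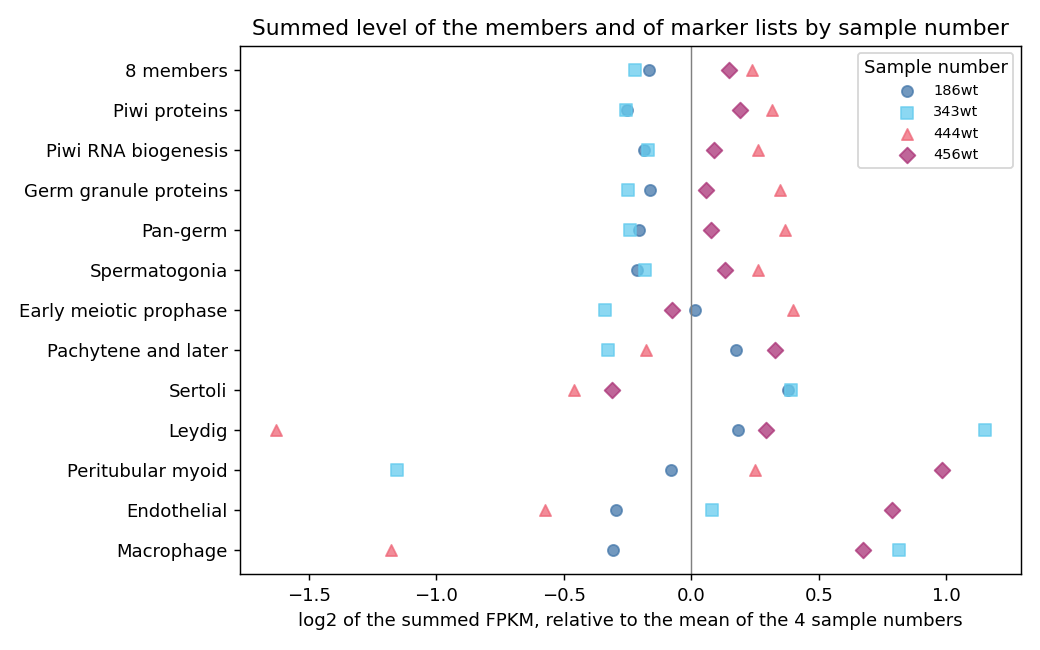
Log2 of the summed FPKM of the 8 members and of 12 gene lists in each sample number, relative to the mean log2 over the 4 numbers. The members sum to 149, 143, 196 and 185 FPKM in 186wt, 343wt, 444wt and 456wt, and the Sertoli markers to 3692, 3724, 2064 and 2287.

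Other genes of the piRNA pathway were compared from lists of 22 genes, all of which passed the F-test, where 58.2% of all genes did. Among the 14348 genes whose mean reached 1 FPKM, 11136 passed, all 22 of these lists among them. With median-ratio scaling 21 passed, and after division by the pan-germ sum 16 did, where 65.1% of all genes passed. Against 343wt, 20 were higher in 444wt, where 29.3% of all genes were, and 1 was lower (3534 of 20795 genes). In 456wt 21 were higher, where 27% of all genes were, and 1 was lower (2897 of 20795 genes). Divided by the pan-germ sum, which holds Ddx4 of this list, 1 was higher and 10 lower in 444wt. There 54% of all genes were lower. By this measure 6 were higher and 2 lower in 456wt, for which no share of all genes is given here. Among the Piwi proteins, Piwil2 (MILI, the partner of Tdrd1) was at 57.0, 56.8, 88.3 and 76.4 FPKM in the order above. Piwil4 (MIWI2) was at 4.45, 5.23, 8.01 and 6.20 FPKM. Piwil1 (MIWI), known from pachytene spermatocytes onwards, ran otherwise, at 6.41, 5.63, 4.22 and 9.72 FPKM, lowest in 444wt and highest in 456wt. Mael, a partner of the Piwi proteins in granules, was at 87.8, 96.9, 140 and 118 FPKM. Mov10l1, the helicase that feeds precursors into piRNA production, was at 76.1, 60.2, 90.9 and 81.7 FPKM. From 444wt to 456wt, 14 of the 22 were lower, where 14.1% of all genes were, and 2 higher, where 15.8% were.

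The remaining genes of piRNA production differed widely in mean level. The co-chaperone Fkbp6 was highest, at 188 ± 20.2 FPKM (SD, n = 4). Asz1 and Pld6, both proteins of the mitochondrial surface, were at 23.1 ± 4.91 and 17.4 ± 3.20 FPKM. The trimming nuclease Pnldc1 was at 20.9 ± 3.43 FPKM, the methyltransferase Henmt1 at 10.4 ± 3.04 FPKM and Exd1 at 3.23 ± 0.824 FPKM. Among granule proteins, the helicases Ddx4 and Ddx25 were at 86.8 ± 17.2 and 29.9 ± 5.91 FPKM. Tex15 was at 69.2 ± 16.5 FPKM, Gtsf1 at 26.3 ± 5.48 FPKM and Spocd1 at 4.89 ± 1.08 FPKM. Each of these was highest in 444wt except Pnldc1 and Exd1, which were highest in 456wt.

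The other germ-line Tudor genes, Tdrd12 at 11.1 ± 1.36 FPKM and Rnf17 at 29.6 ± 5.84 FPKM (SD, n = 4), were both called higher in 444wt and in 456wt than in 343wt. Prmt5, the enzyme that places the arginine marks that Tudor domains read, was at 36.0, 36.5, 40.6 and 49.5 FPKM. Its partner Wdr77 was at 76.1 ± 10.3 FPKM (SD, n = 4). Mybl1, which encodes the transcription factor A-MYB of pachytene piRNA genes, was at 11.3, 9.70, 8.56 and 7.00 FPKM and was lowest in 456wt. Btbd18, another regulator of piRNA genes, was at 14.6 ± 2.85 FPKM. Of 19 Tudor domain genes with known roles outside granules, 18 passed the F-test, where 58.2% of all genes did. From 343wt to 444wt, 9 of them were higher, where 29.3% of all genes were, and 5 were lower (3534 of 20795 genes). After division by the pan-germ sum 18 were lower, where 54% of all genes were. Uhrf1, which maintains DNA methylation, went from 47.7 to 71.8 FPKM, and the histone demethylase Kdm4a from 31.4 to 23.1 FPKM.

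The genes of most similar profile over the 4 numbers were sought for the 3 members with the widest span, among the 14348 genes whose mean reached 1 FPKM. Likeness was the root mean square difference of the centred log2 values, and it is a description over 4 points. For Stk31 they were 1110050K14Rik (0.01), Dazl (0.01) and Pole (0.02), and for Tdrkh they were Reln (0.01), Aifm3 (0.02) and Plxnb1 (0.02). For Tdrd6 they were Tek (0.06), Ly6c1 (0.08) and Akr1c14 (0.08). Tek, a receptor of endothelial cells, was at 1.25, 1.55, 0.993 and 2.53 FPKM in 186wt, 343wt, 444wt and 456wt, and the 5 endothelial markers, Tek among them, summed to 16.2, 21.0, 13.4 and 34.2 FPKM. Tdrd6 was highest and lowest in the same numbers as this sum. So were the germ cell genes Piwil1 and Ldhc. Ldhc, of the pachytene and later list, was at 5.96, 7.42, 1.84 and 13.5 FPKM, in the same rank order as Tdrd6. Hspa2 and Ccna1 of that list were lowest in 343wt instead. The part of endothelial cells or of later germ cells in the level of Tdrd6 was not tested.

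**Figure D4:**
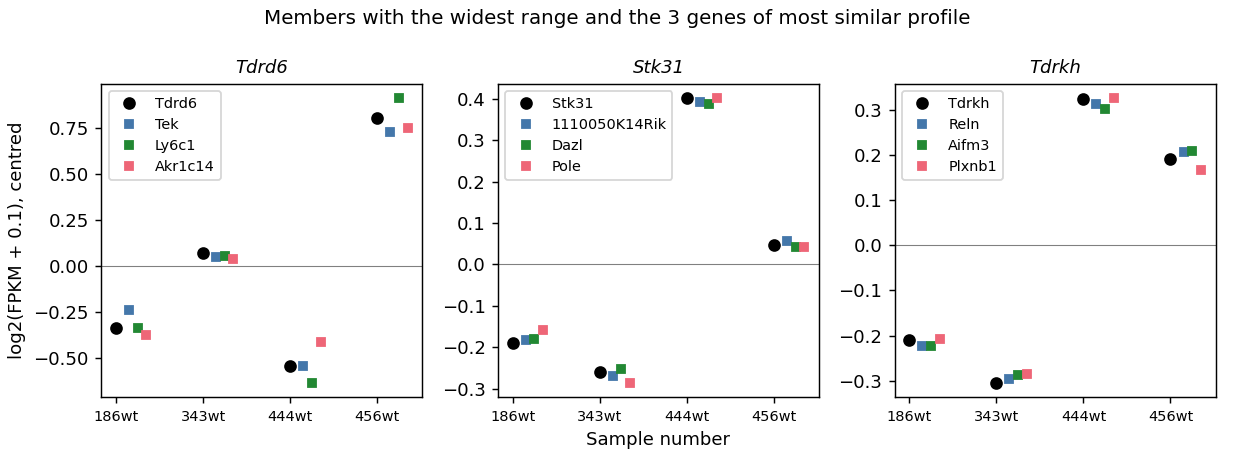
Centred log2(FPKM + 0.1) by sample number for Tdrd6, Stk31 and Tdrkh (black circles) and the 3 genes of most similar profile for each (coloured squares, shifted sideways). Tdrd6 spans 1.34 on this scale, Stk31 0.66 and Tdrkh 0.63.

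Promoters were available from RefSeq (GRCm38.p6) for 7 members, and each of their entries matched NCBI build 37 at 1 place. A set of 4 motif spellings was searched on both strands in the 250 bases before each start. The motifs were chosen after these promoters had been read, and CACGTG had been seen in several of them by eye, so the counts are no evidence of enrichment. CACGTG (the E-box) was in Tdrd1, Tdrd9 and Stk31, and in 6.86% of all 27025 genes. GCGGGA (an E2F-type motif) was in Tdrd3 and Tdrd5, and in 18.8% of genes. AACNG, a core of MYB sites, was in 6 members and in 76.8% of genes. The longer AACNGNC, which was searched first and then shortened, was in the same 6 members and in 30.6% of genes. The promoters of 3 genes with CACGTG are printed, each called higher in 444wt than in 343wt, beside that of Tdrd3, which was not called. CACGTG is in capitals. They end 1 base before the annotated gene start on the plus strand of build 37, at chr19:56900449-56900698 for Tdrd1, chr12:113209520-113209769 for Tdrd9, chr6:49345353-49345602 for Stk31 and chr14:87816140-87816389 for Tdrd3.
Tdrd1: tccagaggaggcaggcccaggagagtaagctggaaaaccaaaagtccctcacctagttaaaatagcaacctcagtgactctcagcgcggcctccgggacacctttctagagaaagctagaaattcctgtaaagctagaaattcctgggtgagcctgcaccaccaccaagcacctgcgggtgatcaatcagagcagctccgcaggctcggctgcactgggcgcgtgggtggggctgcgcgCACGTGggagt
Tdrd9: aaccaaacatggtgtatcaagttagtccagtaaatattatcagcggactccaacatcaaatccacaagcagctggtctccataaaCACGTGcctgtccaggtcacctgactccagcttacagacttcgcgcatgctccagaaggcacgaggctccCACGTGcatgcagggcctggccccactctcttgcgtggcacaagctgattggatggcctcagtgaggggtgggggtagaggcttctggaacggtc
Stk31: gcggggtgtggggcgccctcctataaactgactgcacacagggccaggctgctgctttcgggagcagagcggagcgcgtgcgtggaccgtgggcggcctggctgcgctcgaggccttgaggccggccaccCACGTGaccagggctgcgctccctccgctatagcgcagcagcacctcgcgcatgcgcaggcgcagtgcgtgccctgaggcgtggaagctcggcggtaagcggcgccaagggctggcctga
Tdrd3: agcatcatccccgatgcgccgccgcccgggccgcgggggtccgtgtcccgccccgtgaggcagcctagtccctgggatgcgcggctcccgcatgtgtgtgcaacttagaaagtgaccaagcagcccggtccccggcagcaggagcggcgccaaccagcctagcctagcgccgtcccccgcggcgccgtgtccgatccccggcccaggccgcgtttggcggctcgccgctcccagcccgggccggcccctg

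The E-box was centred 8 bases before the start in Tdrd1 and 117 in Stk31, and Tdrd9 had a pair, at 162 and 92 bases. Tdrkh, Tdrd5 and Tdrd7 were also higher in 444wt than in 343wt and had no CACGTG in this window.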

How the data were processed

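RNA-seq values of 12 libraries (4 sample numbers, 3 libraries each) were used. For the deposited FPKM the authors mapped paired reads to build 37 transcripts (Bowtie 0.12.9), kept those with fewer than 2 mismatches and quantified them with RSEM 1.2.8. These FPKM are rounded, without counts. A strand setting is not given in the sources used here. Fits used limma 3.58.1 in R 4.3.3 (lmFit, eBayes with trend) on log2(FPKM + 0.1) over genes whose mean reached 0.1 FPKM. The F-test was adjusted by Benjamini-Hochberg over genes, and pairwise contrasts over genes and 6 contrasts together. Adding 0.1 understates changes of low genes such as Tdrd6. Depth was estimated from 295 genes with 1 transcript of 300 to 500 bp, with settings chosen while looking at these data. The chi-square between libraries used genes of at least 1000 bp and 50 expected fragments. Scripts were tested on simulated data. Of 200 genes raised by 0.5 on the log2 scale in 1 sample number, limma recovered 47.5%, and 7.77% of calls were false. Named genes were the 8 members, the pathway and marker lists, and the 3 genes of most similar profile for the 3 members of widest span. Members and lists were chosen with earlier results of these data known. Henmt1, Btbd18, Meiob and Adgre1 were found under older symbols, and Rhox5 was not matched. Python 3.11.15, numpy 2.4.6, scipy 1.17.1, pandas 2.3.3 and matplotlib 3.10.9 were used.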

Additional observations from a re-analysis of the deposited data

How the results depend on the processing

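The number of members passing the F-test was 6 or 7 of 8 under every alternative tried but 1. With a minimum of 1 FPKM, which drops Tdrd6, it was 6 of 7. The called pairwise differences were 24 to 29 of 48 (27 of 42 with that minimum) wherever all 4 numbers were kept. Leaving out a number left 24 comparisons, of which 13 to 15 were called. Outside the pan-germ scalings no called pairwise difference changed sign, and 18 of 587 values lost their call, those of Tdrd7, Tdrkh and Tdrd6. Of the members that missed the F-test, Tdrd6 passed it with a pseudocount of 1 (limma adjusted p = 0.0374) or without 186wt (0.0498) or 343wt (0.0472). Pathway genes passing it were 15 of 22 with the pan-germ geometric mean. Genes called numbered 9848 (without 444wt) to 13516 (pan-germ sum), beside 12107.

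Division by the pan-germ sum turned the sign of 14 called differences, and on the log2 scale they became, for 444wt minus 186wt, Tdrd1 -0.17, Tdrd5 -0.076, Tdrd7 -0.43, Tdrd9 -0.20, Tdrkh -0.036. For 444wt minus 343wt they were Tdrd1 -0.17, Tdrd5 -0.14, Tdrd7 -0.45, Tdrd9 -0.038. For 456wt minus 186wt they were Tdrd7 -0.13, Stk31 -0.044. For 456wt minus 343wt they were Tdrd7 -0.15, Stk31 -0.0053. For 456wt minus 444wt they were Tdrkh 0.16. Some turned differences were no longer called (limma adjusted p = 0.204 to 0.936). They were Tdrd5 and Tdrkh in 444wt minus 186wt, Tdrd9 in 444wt minus 343wt, and both of Stk31. Division by the geometric mean of the 3 genes, added after the data were seen because Dazl leads the sum, turned the sign of 14 too. For 444wt minus 186wt they were Tdrd1 -0.16, Tdrd5 -0.072, Tdrd7 -0.43, Tdrd9 -0.20, Tdrkh -0.032. For 444wt minus 343wt they were Tdrd1 -0.16, Tdrd5 -0.13, Tdrd7 -0.44, Tdrd9 -0.027. For 456wt minus 186wt they were Tdrd7 -0.15, Stk31 -0.061. For 456wt minus 343wt they were Tdrd7 -0.16, Stk31 -0.015. For 456wt minus 444wt they were Tdrkh 0.14. The same differences of Tdrd5, Tdrkh, Tdrd9 and Stk31 were not called (limma adjusted p = 0.236 to 0.797). Over both divisions, 28 of 56 values turned sign, 13 kept it but lost their call, and 15 stayed called. The divisor is itself higher in 444wt and 456wt than in 186wt and 343wt. As TPM the levels were Tdrd1 69.3, Tdrd3 20.6, Tdrd5 28.2, Tdrd6 1.504, Tdrd7 48.5, Tdrd9 61.0, Tdrkh 52.3, Stk31 68.1, since TPM sums to a fixed total and FPKM do not.

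With the library number as a replicate block, 6 members, 27 pairwise differences and 11774 genes were called, and Tdrkh lost its call in 456wt minus 444wt (limma adjusted p = 0.06003). The library numbers showed no clear pairing of the samples. Deviations of same-numbered libraries correlated at -0.06 to 0.13, others at -0.13 to 0.08, and 5 of 12 libraries correlated best with their own number. A weak pairing could be missed by this check. Leaving out 1 library called 6 to 7 members and 26 to 29 pairwise differences. Tdrd6 had the fewest fragments of the members, and the cause of its spread between libraries was not tested. The labels do not say whether the libraries of a number are separate preparations, which limits every comparison.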
